A study of Mus musculus with 24 samples.

Results

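The olfactory receptor genes of the mouse were examined for H3K4me3 and H3K27me3 in mammary basal cells, a tissue outside the nose. Members were all genes whose mouse symbol, matched from the Entrez identifier, was Olfr followed by a number. The rule found 1108 members among 27080 identifiers, of which 25189 had a symbol. Members lay on 17 chromosomes, with 288 on chromosome 2, 237 on chromosome 7, 132 on chromosome 9 and 82 on chromosome 11. Neighbouring members with starts less than 1 Mb apart were joined into 49 clusters, and the 29 clusters of at least 5 members held 1069 of them.

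The series profiled basal cells sorted from mammary glands of untreated C57BL/6 females. Lgr5, a receptor for R-spondins, and Tspan8, a membrane tetraspanin, divided them into 4 subpopulations, named Lgr5+Tspan8hi, Lgr5+Tspan8-, Lgr5-Tspan8hi and Lgr5-Tspan8-. Each subpopulation had 2 libraries for H3K4me3 and 2 for H3K27me3, which are the 16 libraries used here. Neither the age of the mice nor the number pooled per library is given in the labels, and they do not say that replicates came from separate animals. The p-values therefore measure only the spread between these libraries, which may be technical.

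Each mature olfactory sensory neuron expresses 1 allele of a single receptor gene, and in other cell types nearly the whole family is silent. Receptor genes have a short coding exon, occur as tandem arrays and split into class I genes, which share a single cluster on chromosome 7, and class II genes on many chromosomes. In sensory neurons the silent receptor genes are known to be packed in constitutive heterochromatin marked by H3K9me3 and H4K20me3. H3K4me3 marks the starts of active and poised genes, whereas H3K27me3 is deposited by Polycomb repressive complex 2 and is dense over silent developmental genes such as the Hox clusters.

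In most cell types promoters rich in CpG dinucleotides carry H3K4me3, and receptor promoters are known to hold few of them. The 250 bases before the RefSeq start are printed below for the receptors that stood out most in each mark, 5′ to 3′, with every CpG in capitals. Olfr94 (chr17:37197967-37198216, minus strand), Olfr750 (chr14:51071443-51071692, minus) and Olfr543 (chr7:102477903-102478152, minus) had the most H3K4me3 among short members. Olfr1416 (chr1:92480620-92480869, minus) began the cluster with the most H3K27me3, and Olfr986 (chr9:40186829-40187078, plus) lay at the end of a large cluster with much less. Sequences and coordinates are from RefSeq on GRCm38.p6 (mm10).
Olfr94: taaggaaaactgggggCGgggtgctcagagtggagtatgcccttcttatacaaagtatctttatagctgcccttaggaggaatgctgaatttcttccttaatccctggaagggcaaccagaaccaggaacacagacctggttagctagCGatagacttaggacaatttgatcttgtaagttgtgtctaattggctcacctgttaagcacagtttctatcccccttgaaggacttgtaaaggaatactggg
Olfr750: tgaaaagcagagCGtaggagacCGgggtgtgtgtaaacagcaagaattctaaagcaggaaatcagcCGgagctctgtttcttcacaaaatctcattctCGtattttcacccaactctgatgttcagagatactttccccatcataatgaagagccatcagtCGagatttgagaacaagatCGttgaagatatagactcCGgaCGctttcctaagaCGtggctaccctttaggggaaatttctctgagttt
Olfr543: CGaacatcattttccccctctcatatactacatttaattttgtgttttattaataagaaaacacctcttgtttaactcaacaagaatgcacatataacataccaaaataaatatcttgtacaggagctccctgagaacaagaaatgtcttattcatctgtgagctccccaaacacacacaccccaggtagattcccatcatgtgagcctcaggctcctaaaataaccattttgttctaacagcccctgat
Olfr1416: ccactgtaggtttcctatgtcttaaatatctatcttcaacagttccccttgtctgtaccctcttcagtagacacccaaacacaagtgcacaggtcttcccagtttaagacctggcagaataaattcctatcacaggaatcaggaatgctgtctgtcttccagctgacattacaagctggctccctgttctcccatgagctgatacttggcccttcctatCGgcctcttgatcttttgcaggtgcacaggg
Olfr986: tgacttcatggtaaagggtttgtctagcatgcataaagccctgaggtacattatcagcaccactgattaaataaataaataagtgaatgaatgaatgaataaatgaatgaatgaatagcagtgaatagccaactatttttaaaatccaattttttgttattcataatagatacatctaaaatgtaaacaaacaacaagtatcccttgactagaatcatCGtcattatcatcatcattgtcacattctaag

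Of these stretches, the one of Olfr750 held 9 CpG, that of Olfr94 held 2 and the other three held 1 each. A RefSeq promoter of 300 bases, from 250 before to 50 after the start, was matched for 936 members and 17522 other genes. The median member span was 951 bp, near that of a coding exon alone, so many RefSeq starts of members may not be transcription starts. For such members the stretch would not be the true promoter, and this was not tested. The median member promoter held 1 CpG, against 14 for other genes, and 33.5% of member promoters held none, against 3.39%. The observed number of CpG exceeded 0.6 of that expected from base composition in 5 member promoters (0.534%), those of Olfr56, Olfr750, Olfr1034, Olfr1055 and Olfr427, and in 50.3% of the others. Of all 18458 promoters, 4.63% held TAATTA, the core that homeodomain factors such as Lhx2 read, while 18.8% of member promoters did. TATAAA was found in 41.1% of member promoters and 13.1% of all promoters. CCCNNGGG, the core read by Ebf factors, was found in 3.10% of member promoters and 15.2% of all promoters. Member promoters had a lower median GC content than all promoters. TAATTA and TATAAA hold only A and T, while the fixed letters of CCCNNGGG are C and G. The part of base composition in these motif shares was not tested. Motifs were searched on both strands. Matches of TAATTA and TATAAA can share their end letters.

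Counts over receptor genes were low. Total counts ran from 1472251 to 4740371 reads per H3K4me3 library and from 2639862 to 6972189 per H3K27me3 library, and members took 0.106 to 0.245% and 0.231 to 0.283% of them. The median member had a mean of 3.38 reads per H3K4me3 library and 7.25 per H3K27me3 library. Members without a read made up 2.44 to 64.8% in the H3K4me3 libraries. In the H3K27me3 libraries they made up 0.993 to 3.25%, save 31.3% in replicate 1 of Lgr5-Tspan8hi, which also had the most members at 0 for H3K4me3. Replicate libraries of a subpopulation differed by more than counting noise: over members, chi-square divided by its degrees of freedom was 1.95 to 5.92. Duplicated reads can raise this value too, so it cannot tell technical repeats from separate samples. H3K4me3 reached 5 CPM (reads per 1000000 of the library total, scaled with TMM factors) at 11 of 12 basal and 11 of 12 luminal markers, 6 of 7 fibroblast, 5 of 5 endothelial, 1 of 6 immune and 3 of 6 olfactory neuron markers. Of the neuron markers Adcy3, Gnal and Gng13 were at 20.8 CPM or more, Omp was at 4.65 CPM, and Cnga2 (1.70) and Rtp1 (1.24) were near the receptor median given below.

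H3K4me3 was near the floor at almost every receptor gene. The mean over 8 libraries had a median of 1.30 CPM across members (quartiles 0.978 and 1.65), and 970 members (87.5%) stayed under 2 CPM. A further 132 lay between 2 and 5 CPM, and 6 members (0.542%) reached 5 CPM, against 14413 of 19722 other protein-coding genes (73.1%). Genes of the same size were the closer match. The median over members was 0.959 times that of 430 other genes with spans of 900 to 1200 bp. This is a mean of library ratios without replicate 1 of Lgr5-Tspan8hi, where both medians were 0, and the medians rest on few reads. The mean of those other genes, 7.51 ± 0.093 CPM (SD, n = 8), was far above the 1.41 ± 0.387 CPM of the 904 receptors of that size. Promoters poor in CpG, as placed by RefSeq starts with the limit given above, gave a similar picture. Members with at most 2 CpG had a median of 1.28 CPM (800 genes), and other genes with at most 2 CpG had 1.59 CPM (2661 genes). Across the other genes Spearman's rho between CpG number and H3K4me3 was 0.725, and across members it was -0.022. These are descriptions across genes of the same libraries.

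**Figure D1:**
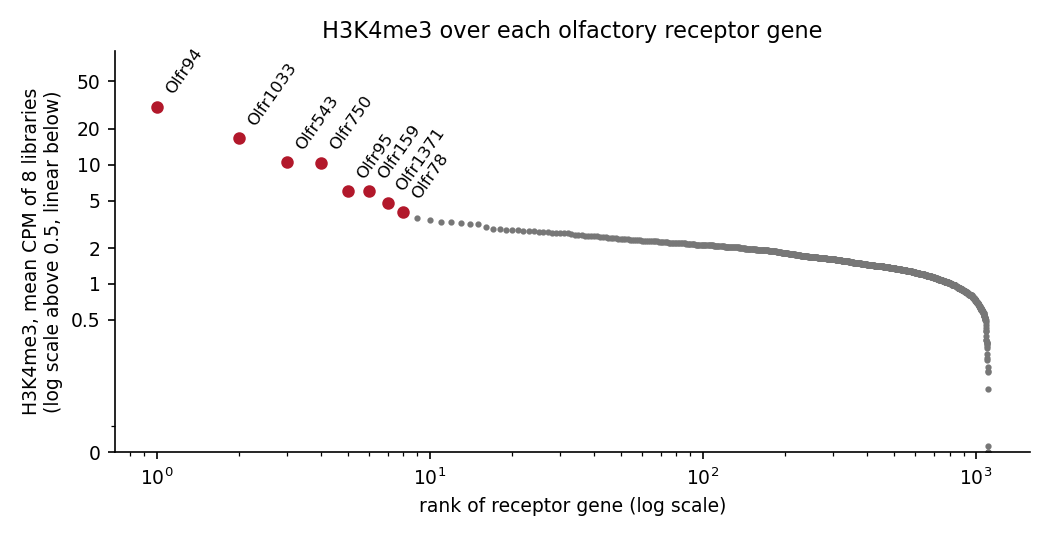
Mean H3K4me3 of each of the 1108 olfactory receptor genes over 8 libraries (y axis, CPM, log scale above 0.5 and linear below), ordered by rank (x axis, log scale). Red dots name the 8 highest genes, from Olfr94 at 30.7 CPM to Olfr78 at 4.04 CPM, which stand above a family whose median was 1.30 CPM.

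Olfr94, a class II receptor gene beside the major histocompatibility complex, had the highest H3K4me3 of the family. It lies at chr17:37196806-37197966 on the minus strand. Its level was 30.1 and 21.4 CPM (Lgr5+Tspan8hi), 39.7 and 31.7 (Lgr5+Tspan8-), 38.9 and 26.1 (Lgr5-Tspan8hi) and 21.4 and 36.0 (Lgr5-Tspan8-). All 8 libraries were high and the subpopulations overlapped, with a mean of 30.7 ± 7.30 CPM (SD, n = 8), or 23.6 times the family median. Its GC content of 61.5% was the highest among members of 900 to 1200 bp. The nearest start of a gene outside the family, that of Ubd (ubiquitin D), was 4074 bp away and Ubd itself had 6.50 ± 2.24 CPM. H3K27me3 over Olfr94 was 1.65 ± 1.13 CPM per kb, 1.30 times the family median.

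Olfr1033 (chr2:86020640-86044808, plus strand), inside the largest cluster, followed at 16.7 ± 4.61 CPM. Its 8 libraries gave 13.1 and 11.8 CPM (Lgr5+Tspan8hi), 19.5 and 22.3 (Lgr5+Tspan8-), 16.8 and 13.3 (Lgr5-Tspan8hi) and 23.7 and 13.1 (Lgr5-Tspan8-). No library came near the family median. Olfr543 (chr7:102476773-102477902), the outermost gene of the class I cluster, had 9.32 and 7.75, 8.66 and 14.2, 8.15 and 8.19, and 13.9 and 14.4 CPM in the same order of subpopulations. Its H3K27me3 was low, at 0.393 ± 0.418 CPM per kb, with no read in 3 of 8 libraries. Olfr750 (chr14:51070311-51071442), whose promoter held the most CpG of the printed set, had 9.32 and 9.92, 11.2 and 14.2, 15.4 and 4.29, and 6.93 and 12.1 CPM. Its replicates in Lgr5-Tspan8hi were the lowest and the highest of the 8.

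Olfr95 (chr17:37210913-37211851), a neighbour of Olfr94, was the single member among the 6 highest for both marks. Its H3K4me3 was 6.00 ± 3.43 CPM and uneven, at 0.848 and 0.906 CPM in replicate 1 of both Tspan8hi subpopulations and 6.07 to 10.1 CPM in the other 6 libraries. Its H3K27me3 was 8.01 ± 1.79 CPM per kb, between 5.89 and 10.9 in every library. The marks of Olfr95 come from separate libraries, so their presence on the same molecules was not measured. Olfr159 (chr4:43770050-43771009) completed the 6 at 5.99 ± 1.96 CPM of H3K4me3, ahead of Olfr1371 at 4.75 and Olfr78 at 4.04 CPM. In edgeR's quasi-likelihood test (Benjamini-Hochberg adjustment over all genes), the H3K4me3 of these 6 did not differ by Tspan8 (adjusted p from 0.888 for Olfr1033 to 0.996 for Olfr159). For Olfr94 the Tspan8 difference was -0.19 on the log2 scale (SE 0.230, edgeR adjusted p = 0.967).

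Pooled H3K4me3 over the family was lower in Tspan8hi than in Tspan8- libraries, but the groups overlapped. The mean per member was 1.27 and 1.04 CPM (Lgr5+Tspan8hi), 1.54 and 2.19 (Lgr5+Tspan8-), 0.974 and 1.42 (Lgr5-Tspan8hi) and 1.30 and 1.58 (Lgr5-Tspan8-). The Tspan8hi mean of 1.18 ± 0.206 CPM (SD, n = 4) and the Tspan8- mean of 1.65 ± 0.380 CPM (SD, n = 4) differed by -0.49 on the log2 scale. Over the median member the difference was -1.15, a coarse value from medians of 0 to 3 reads per Tspan8hi and 2 to 6 per Tspan8- library. The median of 0 was that of replicate 1 of Lgr5-Tspan8hi. By Lgr5 the means were 1.51 ± 0.499 and 1.32 ± 0.256 CPM (0.20 on the log2 scale), within the spread of the libraries. On all 17 chromosomes members were lower in Tspan8hi, by -0.72 to -0.15 on the log2 scale, and these chromosomes share the same libraries.

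Other families with little H3K4me3 were lower in Tspan8hi too, by amounts that varied. The difference was -0.49 for 228 Vmn1r vomeronasal receptors, -0.42 for 122 Vmn2r, -0.48 for 55 Krtap keratin-associated genes and -0.38 for 43 Defb defensins. It was -0.37 for Tas2r and -0.18 for Ms4a genes, and -0.72 for Taar, -0.73 for Sprr and -1.22 for the 4 Fpr-rs genes. Some families with more H3K4me3 showed less, with -0.08 for 39 Hox genes and 0.01 for 28 Serpinb genes. The 21 Ugt genes, at a mean of 3.68 CPM, had -0.33, so the difference did not follow the level strictly. Library complexity moved with the same groups. The share of reads that would leave the observed number of genes at 0, if drawn independently from the pooled profile, was 17.2 to 47.4% in Tspan8hi and 55.2 to 98.8% in Tspan8- H3K4me3 libraries. The part of these values in the result was not tested. Among the 90 members that passed the low-count filter, the median log2 difference was -0.21, and offsets fitted by loess turned it to 0.07.

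**Figure D2:**
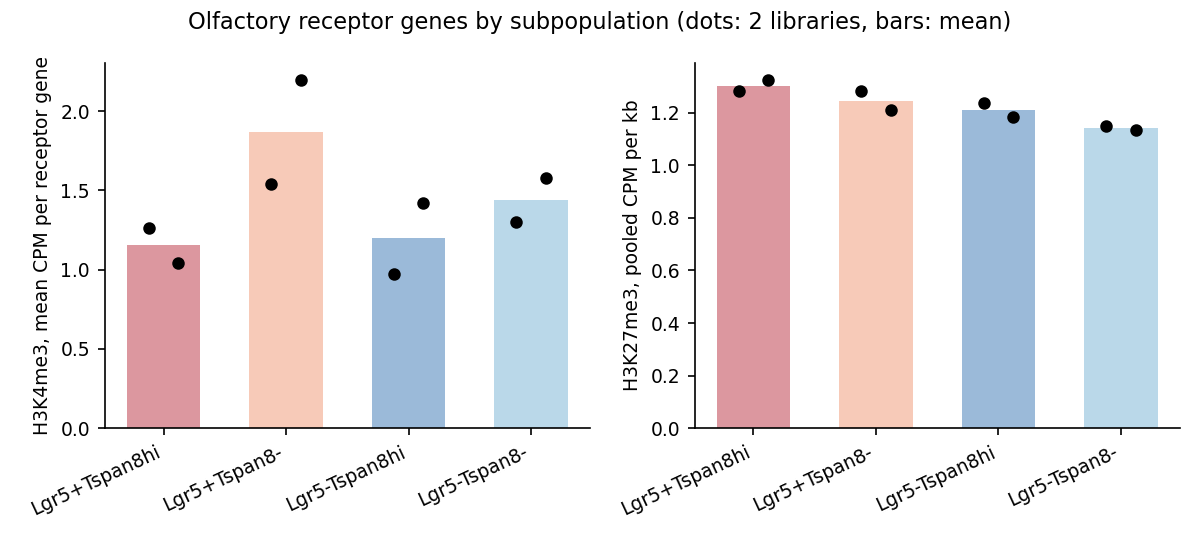
Olfactory receptor genes by subpopulation (x axis): left, mean H3K4me3 CPM per member; right, pooled H3K27me3 CPM per kb of summed gene span. Dots are the 2 libraries of each subpopulation and bars their mean; H3K4me3 ran from 0.974 to 2.19 CPM, and H3K27me3 from 1.13 to 1.32 CPM per kb.

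Pooled H3K27me3 over receptor genes was above that of other genes and below that of the Hox genes. The factor depended on the measure, and the excess was not seen at every size or GC content. The pooled level was 1.28 and 1.32 CPM per kb (Lgr5+Tspan8hi), 1.28 and 1.21 (Lgr5+Tspan8-), 1.24 and 1.18 (Lgr5-Tspan8hi) and 1.15 and 1.13 (Lgr5-Tspan8-). The mean of 1.23 ± 0.0682 CPM per kb (SD, n = 8) was 1.39 ± 0.0928 times that of other protein-coding genes, between 1.23 and 1.51 in each library, and the ratio of medians over genes was 2.69. Hox genes had 6.80 ± 1.36 CPM per kb. Values per kb depended on span: over 1046 members under 10 kb that stood clear of other genes, the fitted H3K27me3 was 0.808 CPM per kb of span plus an intercept of 0.892 CPM. At equal size the excess was smaller, with 1.17 times the mean of other genes for spans of 900 to 1200 bp (1.07 to 1.29 in each library). From 800 to 1000 bp the medians were 1.33 CPM per kb for 782 members and 0.951 for 363 others, and in the next class, up to 1200 bp, they were 1.37 for 157 members and 1.38 for 143 others.

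Chemosensory families differed in H3K27me3. Receptors of trace amines (Taar, 15 genes) had 2.58 ± 0.430 CPM per kb and bitter taste receptors (Tas2r, 35 genes) 1.59 ± 0.159, both above the olfactory receptors in mean level. The vomeronasal Vmn1r genes, whose median span of 924 bp is close to the 951 bp of members, had 0.835 ± 0.0628 CPM per kb, below the lowest olfactory receptor library. Major urinary protein genes (Mup, 22 genes) had 0.375 ± 0.0731, and keratin-associated protein genes 2.29 ± 0.249.

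Olfr56 alone stood far outside the range of the family. It showed 90.6 ± 9.61 CPM per kb of H3K27me3, on a mean of 572.5 reads, with every library between 73.8 and 104.6 CPM per kb. RefSeq gives it 1215 bp at chr11:49134173-49135387, while a gene model in GENCODE M21 starts at 48978889 and spans 156.5 kb, so the length that was counted is uncertain and its value per kb cannot be interpreted. Without Olfr56 the family's pooled level was 1.17 ± 0.0643 CPM per kb. The next highest members were Olfr95 at 8.01, Olfr1416 at 7.51 ± 3.57, Olfr329 at 7.13 ± 2.19, Olfr63 at 7.01 ± 1.85 and Olfr986 at 6.81 ± 1.74 CPM per kb. The pooled Hox level was 6.80 and the median Hox gene had 9.84 CPM per kb, over a median span of 3737 bp against about 1 kb for these receptors. In all, 15 members had at least 5 CPM per kb, 58 had under 0.5, and the middle 50% lay between 0.943 and 1.88.

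The level of H3K27me3 differed more between chromosomes than between subpopulations. It was highest on the X chromosome, at 4.85 ± 0.879 CPM per kb (SD, n = 8) for 6 members, and lowest on chromosome 16, at 0.440 ± 0.0775 for 38 members. Chromosome 2, with the most members, had 0.744 ± 0.0876, chromosome 7 had 1.29 ± 0.0727 and chromosome 11 had 2.39 ± 0.148 CPM per kb, or 1.74 ± 0.0901 without Olfr56. Long gene models lower the value per kb on some chromosomes. Over members of 900 to 1200 bp, chromosome 16 had 1.43 ± 0.263 CPM per gene, within the spread of chromosome 7 (1.45 ± 0.110) and chromosome 9 (1.41 ± 0.0942). Chromosome 2 then was lowest at 1.14 ± 0.134 CPM and the X chromosome stayed highest at 4.63 ± 0.839, ahead of chromosomes 8 (2.97 ± 0.510), 15 (2.88 ± 0.566) and 11 (2.72 ± 0.131), which did not differ beyond their spread. H3K4me3 showed no such order. It ran from 1.27 ± 0.644 CPM on the X chromosome to 1.95 ± 0.511 on chromosome 17, where Olfr94 lies and where the median member had 1.20 CPM.

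In female cells 1 of the X chromosomes is inactivated and is known to carry H3K27me3. The X-linked members are Olfr1320 to Olfr1324, in a single cluster, and Olfr1325, with 4.13 to 6.41 CPM per kb each. X-linked members exceeded autosomal members 4.05- and 2.91-fold (Lgr5+Tspan8hi), 3.33- and 3.795-fold (Lgr5+Tspan8-), 4.38- and 4.01-fold (Lgr5-Tspan8hi) and 3.74- and 5.93-fold (Lgr5-Tspan8-). Other genes of the X chromosome exceeded other autosomal genes 2.52- to 3.55-fold, a smaller ratio than that of the members in each of the 8 libraries. Over genes of 900 to 1200 bp the ratios were 2.98 ± 0.643 for members and 1.88 ± 0.573 for others. With 6 X-linked members, 5 of them neighbours, this is a description of these genes.

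Within chromosomes the clusters also differed, in a similar but not identical order in each library. Over members of 900 to 1200 bp, the cluster at chr1:92479681-92621001, from Olfr1416 to Olfr12 (8 members), had the highest level among the 27 clusters that had at least 5 members, 4 or more of them of that size. It had 3.81 and 4.95 CPM per gene (Lgr5+Tspan8hi), 4.21 and 5.36 (Lgr5+Tspan8-), 6.60 and 5.26 (Lgr5-Tspan8hi) and 4.48 and 5.01 (Lgr5-Tspan8-). It was among the top 2 in all 8 libraries, and the other genes within 500 kb of it had 0.444 CPM per kb. The X-linked cluster (chrX:49683504-50426494) had 4.69 ± 0.930 CPM and the cluster of 24 members at chr11:58454915-59614225 had 3.76 ± 0.454. The top clusters overlapped in their libraries. The second cluster of chromosome 1 (19 members, chr1:172956768-174449602) had 1.21 ± 0.194 CPM, so clusters of 1 chromosome lay far apart.

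The large clusters were low and even. The largest, chr2:85330967-90401674 with 224 members, had 1.21 and 1.32, 1.21 and 1.07, 1.12 and 1.06, and 0.993 and 0.898 CPM per gene in the same order of subpopulations. The class I cluster of 126 members at chr7:102476773-105369317 had 1.69 and 1.59, 1.44 and 1.45, 1.43 and 1.40, and 1.38 and 1.36 CPM. Class I genes were thus at the level of the class II cluster of 97 members at chr9:37711348-40188094 (1.47 ± 0.115 against 1.47 ± 0.118 CPM), which begins with Olfr160 (M72), a receptor much used in studies of receptor choice. The lowest of the 27, with 8 members at chr7:6439902-6570919, had 0.942 ± 0.348 CPM, 5.26-fold under the highest. Spearman's rho of the cluster levels between pairs of libraries was 0.742 to 0.952 (28 pairs, median 0.888). The clusters hold different genes but every pair of libraries shares the same sequences.

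**Figure D3:**
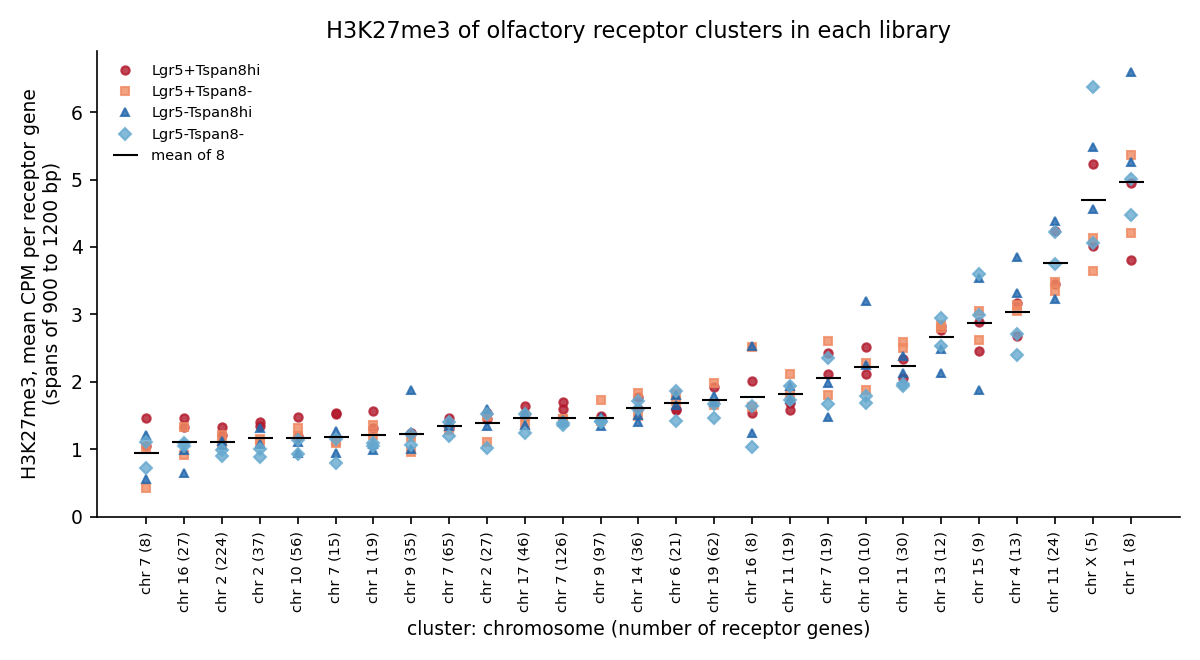
H3K27me3 of 27 olfactory receptor clusters (x axis: chromosome, with the number of members in brackets) as mean CPM per member of 900 to 1200 bp (y axis). Each symbol is 1 library, coloured by subpopulation, and black lines are means of 8 libraries, from 0.942 CPM for a cluster on chromosome 7 to 4.96 CPM for one on chromosome 1.

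Pooled by size, small clusters carried more H3K27me3 per gene than large ones, but single small clusters varied widely. Members of 900 to 1200 bp had 2.87 ± 0.244 CPM in clusters of 1 to 4, 3.02 ± 0.170 in clusters of 5 to 10, 1.85 ± 0.154 in clusters of 11 to 20, 1.69 ± 0.0898 in clusters of 21 to 40, 1.42 ± 0.0905 in clusters of 41 to 70, 1.47 ± 0.0877 in clusters of 71 to 130, and 1.11 ± 0.135 in the cluster of 224. The smallest 2 classes did not differ beyond their spread, and both were above the rest in mean. The class of 5 to 10 holds the highest cluster, on chromosome 1, and the X-linked cluster. It also holds the lowest, on chromosome 7 (8 members, 0.942 CPM), and a cluster of 8 on chromosome 16 at 1.77 CPM. Across the 27 clusters Spearman's rho between number of members and level was -0.484. H3K4me3 was flat over the same classes, between 1.33 and 1.496 CPM. Base composition went along with cluster size, with a mean GC content of 49.9% in clusters of 5 to 10 and 41.3% in the largest cluster.

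GC content itself ordered the members for H3K27me3. In 5 classes of equal size from the lowest GC to the highest, the means were 1.14 ± 0.143, 1.22 ± 0.122, 1.498 ± 0.136, 1.64 ± 0.0884 and 2.41 ± 0.0861 CPM, while H3K4me3 was 1.39, 1.32, 1.28, 1.29 and 1.74 CPM. Across 904 members Spearman's rho with GC was 0.427 for H3K27me3 and -0.001 for H3K4me3. In single libraries it was 0.223 to 0.392 for H3K27me3. Across 430 other genes of the same size rho was 0.029. In the same GC classes these other genes had 1.41 ± 0.123, 1.01 ± 0.0675, 0.914 ± 0.121, 2.16 ± 0.362 and 1.60 ± 0.134 CPM of H3K27me3. Members were thus lower in mean than other genes in the lowest and the 4th class, which held 28 others, and higher in the rest. The inputs were not analysed here, and the part of base composition in the level was not tested. The X-linked members stood apart from this order, with a GC content of 39.3 to 45.6%.

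**Figure D4:**
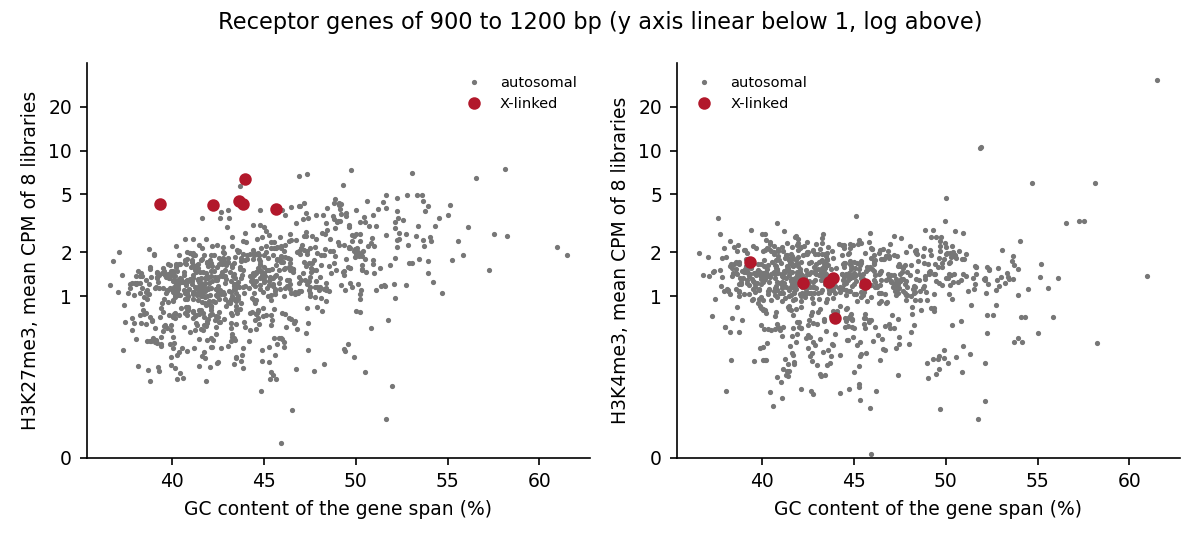
Receptor genes of 900 to 1200 bp by GC content of the gene span (x axis, %) and mean CPM over 8 libraries (y axis, linear below 1 and log above), for H3K27me3 (left) and H3K4me3 (right). H3K27me3 was higher at high GC (rho 0.427 across 904 members), the 6 X-linked members are in red, and H3K4me3 showed no such order (rho -0.001).

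Pooled over clusters, members at the ends had more H3K27me3 than those inside. In the 15 clusters of at least 20 members, the 2 outermost genes on each side were taken as ends. The 47 end members of 900 to 1200 bp had 1.97 ± 0.126 CPM and the 707 inner members 1.38 ± 0.0984 CPM, a ratio of 1.19 to 1.59 in each library. The end was higher in 10 of 15 clusters. The chromosome 9 cluster that ends with Olfr986 had 3.56 CPM at its ends and 1.36 inside, whereas the class I cluster had 1.20 and 1.48. The pooled means weigh clusters unequally, since the largest, a low one, gave 185 of the inner and 3 of the end members. End members also had a higher GC content, 46.4% against 42.9%. The parts of cluster and of GC in the difference were not tested.

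Across subpopulations the family's pooled H3K27me3 differed little. Lgr5+ libraries had 1.27 ± 0.0476 CPM per kb (SD, n = 4) and Lgr5- libraries 1.18 ± 0.0466, a difference of 0.12 on the log2 scale with overlapping libraries, which was 0.33 over the median member. Tspan8hi libraries had 1.26 ± 0.0602 and Tspan8- libraries 1.19 ± 0.0678, a difference of 0.07, whose sign turned when the median member was used (-0.07). The share of reads that matched the genes at 0, as defined above, was 31.0 to 63.5% in Tspan8hi and 70.7 to 77.5% in Tspan8- H3K27me3 libraries, and its part in these values was not tested. By chromosome, the Lgr5 difference ran from -0.24 on chromosomes 8 and X to 0.37 on chromosome 16, and 12 of 17 chromosomes were above 0. Chromosome 2 had 0.848 and 0.863 CPM per kb (Lgr5+Tspan8hi), 0.788 and 0.719 (Lgr5+Tspan8-), 0.751 and 0.704 (Lgr5-Tspan8hi) and 0.684 and 0.599 (Lgr5-Tspan8-). Its double-positive libraries were the highest 2 and its double-negative libraries the lowest 2 of the 8.

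No receptor gene passed the threshold in any comparison. Of 1108 members, 90 for H3K4me3 and 626 for H3K27me3 had enough reads to be tested, and a gene was called at an adjusted p under 0.05. For H3K4me3, edgeR called 0 members by Tspan8, 0 by Lgr5, 0 for the interaction and 0 for any difference, where it called 0.0473%, 0.0421%, 0% and 0.0894% of 19009 genes. For H3K27me3 it called 0 members in the same comparisons, where it called 0.335%, 0.0407%, 0.00905% and 0.529% of 22099 genes. Of all genes 0.00526% were called higher and 0.0421% lower in Tspan8hi for H3K4me3, and 0.0950% and 0.240% for H3K27me3. By Lgr5, 0.0105% were called higher and 0.0316% lower in Lgr5+ for H3K4me3, and 0.0136% and 0.0272% for H3K27me3. With shares this low, 0 calls were near what the whole table gave. DESeq2 and limma-voom called 0 members too. A fit without 1 library leaves its group with a single library. The share of all genes called in such fits is not given here, so nothing is read from the counts that follow. Without replicate 2 of Lgr5-Tspan8hi edgeR called 5 members for H3K27me3 by Tspan8 (Olfr19, Olfr341, Olfr1176, Olfr1282 and Olfr1322), 1 by Lgr5 (Olfr27) and 2 for any difference (Olfr27 and Olfr1282).

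At an unadjusted p under 0.05 the H3K27me3 comparisons by Tspan8, by Lgr5, for the interaction and for any difference held 23, 33, 23 and 20 members in edgeR. These were 3.67%, 5.27%, 3.67% and 3.19% of members tested, against 12.9%, 7.19%, 5.5% and 11.1% of all genes. For H3K4me3 the counts were 6, 9, 8 and 7 of 90, against 5.9%, 4.98%, 4.2% and 5.27% of all genes. A member this low can pass the filter on low counts through the group in which it is high, so nothing is read from these shares.

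The members with the smallest p did not reach the threshold over all libraries. Choice by p favours members whose groups are separate, here and in the paragraphs that follow, so nothing is read from the separation. Olfr341, of a chromosome 2 cluster, had 3.52 and 2.57 CPM per kb of H3K27me3 (Lgr5+Tspan8hi), 1.47 and 0.821 (Lgr5+Tspan8-), 4.79 and 2.62 (Lgr5-Tspan8hi) and 0.734 and 0.636 (Lgr5-Tspan8-). Its 4 Tspan8hi libraries lay above the 4 Tspan8- libraries, on 3 to 20 reads each. The difference was 1.87 on the log2 scale (SE 0.609, edgeR adjusted p = 0.169), and Olfr341 was among the members called without replicate 2 of Lgr5-Tspan8hi. Olfr1448 of chromosome 19 had a like pattern, at 2.56 to 4.77 against 0.614 to 0.976 CPM per kb, with a difference of 1.87 (SE 0.615, edgeR adjusted p = 0.176).

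For Lgr5 the smallest p belonged to Olfr531 on chromosome 7. Its H3K27me3 was 3.08, 4.07, 2.81 and 3.38 CPM per kb in the Lgr5+ libraries and 0.411, 0.842, 1.01 and 0.491 in the Lgr5- libraries. The groups did not overlap, which the choice by p favours, and the difference was 2.20 on the log2 scale (SE 0.632, edgeR adjusted p = 0.313). Olfr722, the first gene of the chromosome 14 cluster that ends with Olfr1507 (MOR28), had 1.54 to 2.33 against 0.822 to 1.42 CPM per kb and a difference of 0.81 (SE 0.240, edgeR adjusted p = 0.343).

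Olfr27, a long gene model of the chromosome 9 cluster, had the smallest p for any difference among the 4 subpopulations. Its H3K27me3 was 1.14 and 1.45 CPM per kb (Lgr5+Tspan8hi), 0.586 and 0.789 (Lgr5+Tspan8-), 0.356 and 0.656 (Lgr5-Tspan8hi) and 0.573 and 0.629 (Lgr5-Tspan8-) (edgeR adjusted p = 0.109). The double-positive libraries were above the other 6. Olfr27 passed the threshold with no filter on low counts (edgeR adjusted p = 0.0355) and without replicate 2 of Lgr5-Tspan8hi. Its neighbour Olfr943 had 1.09 and 1.18 CPM per kb there and 0.557 to 0.863 elsewhere (edgeR adjusted p = 0.253). For H3K4me3 the smallest p by Lgr5 was that of Olfr1084, with 8.05, 3.41, 1.80 and 4.05 CPM in Lgr5+ and 0, 0.390, 1.15 and 0.208 in Lgr5- libraries (edgeR adjusted p = 0.926). By Tspan8 it was that of Olfr1501, which had 0 reads in all 4 Tspan8hi libraries and 2, 8, 7 and 5 reads in the Tspan8- libraries (edgeR adjusted p = 0.607).

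Summing genes over fixed windows of 1 Mb raised the counts. In 32 windows members were at least 5 and at least 50% of the genes, which covered 841 members among 1052 genes. No window was called in any comparison. Of all windows edgeR called 4.09%, 0.383%, 0% and 0.426% for H3K27me3 by Tspan8, by Lgr5, for the interaction and for any difference, and 0.0887%, 0%, 0% and 0.133% for H3K4me3. The H3K27me3 windows called by Tspan8 were higher in 1.24% and lower in 2.85% of all windows, and by Lgr5 in 0.213% and 0.170%. At an unadjusted p under 0.05 there were 4, 7, 1 and 7 of the 32 windows for H3K27me3 in edgeR, or 12.5%, 21.9%, 3.12% and 21.9%, against 26.2%, 14.8%, 4.3% and 21.5% of all windows. For H3K4me3 there were 9, 1, 4 and 6, or 28.1%, 3.12%, 12.5% and 18.8%, against 7.58%, 4.48%, 3.5% and 5.27%. limma-voom called none of the 32 windows, and DESeq2 called 1 by Tspan8 and 3 for any difference in H3K27me3. The shares of all windows called by DESeq2 or without 1 library are not given here, so nothing is read from these counts. Without replicate 1 of Lgr5-Tspan8- edgeR called 4 by Tspan8, 3 by Lgr5 and 3 for any difference in H3K27me3, and without replicate 1 of Lgr5+Tspan8- it called 1 by Tspan8 in H3K4me3.

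Picked by p, which favours separate groups, the window closest to the threshold was chr2:111000001-112000000, with 29 members among 32 genes. Its H3K27me3 was 103.4 and 102.2 CPM (Lgr5+Tspan8hi), 76.0 and 81.4 (Lgr5+Tspan8-), 97.3 and 84.6 (Lgr5-Tspan8hi) and 72.4 and 71.9 (Lgr5-Tspan8-). All Tspan8hi libraries were above all Tspan8- libraries, by 0.35 on the log2 scale (SE 0.0922, edgeR adjusted p = 0.0505). DESeq2 and a fit scaled by library totals placed this window past the threshold (adjusted p = 0.0177 and 0.0434), as did edgeR with no filter (adjusted p = 0.0492) and without replicate 1 of Lgr5-Tspan8-, and offsets fitted by loess gave a lowest adjusted p of 0.111 over the 32 windows. By Lgr5 the lowest was chr2:88000001-89000000, in which all 42 genes are members of the largest cluster. It had 61.7, 62.0, 57.8 and 54.7 CPM in Lgr5+ and 51.9, 44.1, 41.7 and 38.2 CPM in Lgr5- libraries, a difference of 0.43 (SE 0.109, edgeR adjusted p = 0.116). This window was called by Lgr5 without replicate 1 of Lgr5-Tspan8-, and for any difference by DESeq2.

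For H3K4me3 the lowest was chr2:86000001-87000000, with 48 members among 50 genes. It had 72.9, 52.7, 48.5 and 69.8 CPM in Tspan8hi and 103.9, 116.0, 82.0 and 74.8 CPM in Tspan8- libraries, a difference of -0.60 (SE 0.168, edgeR adjusted p = 0.235). Windows richer in receptors were lower in Tspan8hi. The median H3K4me3 difference was -0.54 over the 11 windows in which members were at least 90% of genes and -0.04 over the other 21. Those 11 windows also had fewer H3K4me3 reads, with a median of 158.9 per library against 651.6, and the part of read number was not tested. In H3K27me3 the 32 windows had a median difference of 0.07 by Tspan8 (24 above 0) and 0.10 by Lgr5 (25 above 0), and with loess offsets these were 0.02 and 0.06. The share of all windows above 0 is not given here, so nothing is read from these counts. Of all genes tested 52.7% were above 0 by Tspan8 and 49.0% by Lgr5. The pooled differences by Tspan8 and Lgr5 were 0.12 and 0.09 for Vmn1r, 0.13 and 0.22 for Vmn2r, and -0.06 and -0.07 for Taar genes. Library complexity, given above, moved with Tspan8 in the same libraries and its part was not tested.

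**Figure D5:**
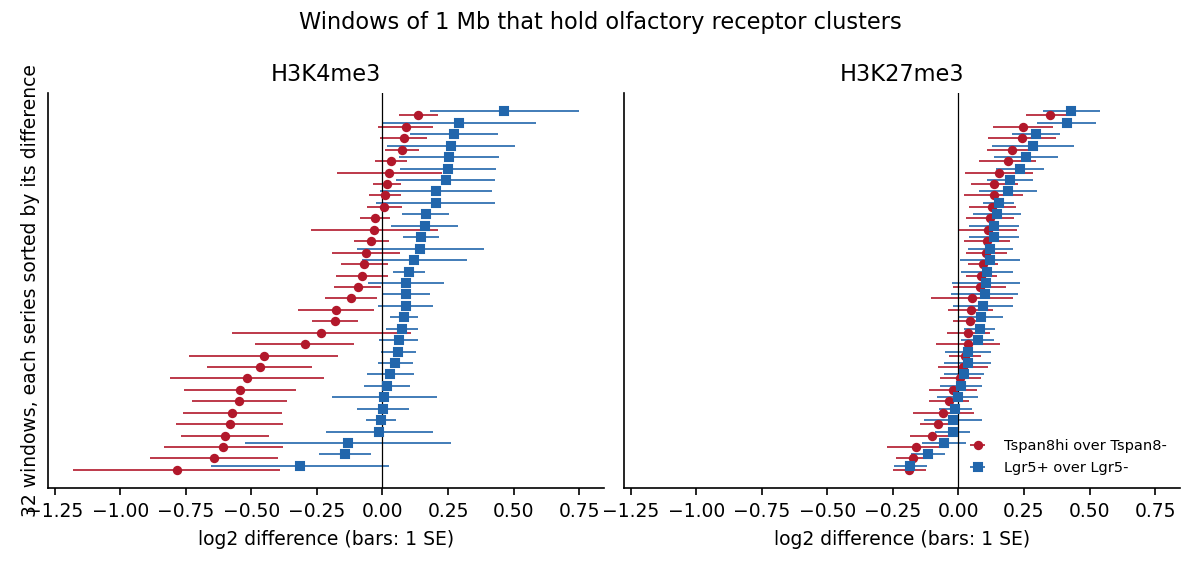
Differences of the 32 windows of 1 Mb that hold olfactory receptor clusters, for H3K4me3 (left) and H3K27me3 (right), on the log2 scale with bars of 1 SE (x axis); windows are sorted within each series (y axis). Red circles are Tspan8hi over Tspan8- and blue squares Lgr5+ over Lgr5-; the lowest H3K4me3 values by Tspan8 reached -0.78, and no window passed an adjusted p of 0.05.

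Of 10 receptors with known roles outside the nose, 5 exceeded 2 CPM of H3K4me3, a level that 970 of the 1108 members did not reach. For H3K27me3, 4 lay above the family's upper quartile and 3 below its lower quartile. Olfr78, a class I receptor of the carotid body and vasculature that responds to short-chain organic acids, had 4.04 ± 2.87 CPM of H3K4me3, from 0 to 8.15 across libraries. Its H3K27me3 was 2.71 and 2.24 CPM per kb (Lgr5+Tspan8hi), 2.76 and 2.12 (Lgr5+Tspan8-), 2.74 and 1.77 (Lgr5-Tspan8hi) and 2.37 and 2.07 (Lgr5-Tspan8-). Every library was above the family's upper quartile of 1.88 save replicate 2 of Lgr5-Tspan8hi. Olfr558, another class I receptor expressed in vessels, had 2.77 ± 1.94 CPM and 2.45 ± 0.561 CPM per kb.

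Olfr16 (MOR23), known from sperm and muscle, had 1.88 ± 1.77 CPM and 2.43 ± 0.869 CPM per kb, and it overlaps another gene, so its reads cannot be told apart. Olfr544, a class I receptor of metabolic tissues, had 1.15 ± 0.890 CPM of H3K4me3 and 1.30 ± 0.512 CPM per kb of H3K27me3. Olfr2 (I7), which detects octanal, had 0.879 and 0.718, Olfr734 had 0.742 and 0.741, Olfr109 had 2.10 and 1.63, Olfr691 had 2.31 and 2.18, and Olfr90 had 2.76 and 1.12 in the same units. Olfr1393, known from the kidney, had 1.23 CPM and 0.0870 CPM per kb over a gene model of 28487 bp. None of the 10 had an H3K4me3 mean of 5 CPM, and none was called for either mark.

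The machinery around the receptors was split. Of 16 olfactory transduction genes measured (of 17 listed), 9 reached 5 CPM of H3K4me3. Among them were Gnal, the olfactory G protein alpha subunit, at 32.7 ± 6.72 CPM, Adcy3, its adenylyl cyclase, at 49.0 ± 7.69, and Ric8b, which helps fold it, at 54.9 ± 11.1. The channel subunits Cnga2 (1.70 CPM, at most 3.33 in any library), Cnga4 (2.75 ± 1.09) and Cngb1 (2.58 ± 1.77), and the receptor chaperones Rtp1 (1.24 ± 1.19) and Rtp2 (4.24 ± 1.49), stayed low. Cnga2, which lies on the X chromosome, had 3.00 ± 0.626 CPM per kb of H3K27me3, where other X-linked genes had 2.35 ± 0.290.

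All 24 genes of receptor choice and silencing reached 5 CPM of H3K4me3. The heterochromatin proteins and lysine methyltransferases among them, such as Cbx5, Ehmt2, Setdb1 and Kmt5b, had 0.189 to 0.358 CPM per kb of H3K27me3, while the X-linked Suv39h1 had 1.92 ± 0.485. The median of all 24 was 0.259 CPM per kb. Among the listed transcription factors, Emx2, Lhx2, Ebf3 and Ebf1 had both marks in these cell samples, and values of the others are not given here. H3K27me3 was 11.2 ± 3.01 CPM per kb at Emx2, 5.90 ± 1.26 at Lhx2, 4.27 ± 0.524 at Ebf3 and 2.65 ± 0.221 at Ebf1. H3K4me3 at these genes was 20.7, 27.2, 60.7 and 24.0 CPM, in the same order. Neither list had a called gene in edgeR for any comparison. At an unadjusted p under 0.05 by Tspan8 in H3K27me3, edgeR listed 6 of 16 transduction genes and 4 of 23 genes of choice and silencing that were tested, against 12.9% of all genes. By Lgr5 it listed 1 and 3 (7.19% of all genes), and for the interaction 0 and 2 (5.5%). Of the cell type markers, edgeR called Dcn of fibroblasts lower in Lgr5+ for H3K4me3 (-1.52 on the log2 scale, SE 0.241, adjusted p = 0.000145) and Mylk of basal cells for any difference in H3K27me3 (adjusted p = 0.0327).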

How the data were processed

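The deposited files hold raw read counts per Entrez gene for 16 ChIP-seq libraries, 8 for each mark. Per the submitters' processing notes the authors used featureCounts and mm10, while no aligner, annotation, counted region or version is given in these sources. The 8 input samples were not analysed here. Per the labels' protocols, chromatin was sheared by sonication before immunoprecipitation. Levels are CPM with TMM factors, divided by RefSeq span (GRCm38.p6) for values per kb. SDs with n = 8 run over all libraries of a mark. Tests used edgeR 4.0.16 in R 4.3.3 (TMM, filterByExpr, quasi-likelihood test on 4 groups, Benjamini-Hochberg adjustment over all genes or windows, threshold 0.05), for Tspan8, Lgr5, their interaction and any difference. "Higher by Tspan8" means Tspan8hi over Tspan8-, averaged over Lgr5. The scripts were tested on simulated data. Alternatives were DESeq2 1.42.0, limma-voom (limma 3.58.1), other scalings, filters and window sizes, a replicate block and leaving out each library. Values for spans of 900 to 1200 bp and without Olfr56 (chromosome 11 included) were added after seeing the data. Members and lists were chosen with earlier results of these data known. Named members were the 6 highest for H3K4me3 at least 2 kb from other starts, the 6 highest for H3K27me3 per kb with a mean count of at least 10 and no overlap, those called or else the 3 with the smallest p per comparison, and 10 known outside the nose. Other members named as the ends of clusters, and those called without 1 library, were named after their values were seen.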

Additional observations from a re-analysis of the deposited data

How the results depend on the processing

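Of the alternative values, 330 kept their direction and side of the threshold or stayed within the replicate spread and 26 moved, and the cause was not tested. The shares of all genes or windows called under these settings are not given here, so the counts below cannot be set against them. For H3K27me3, any difference gave 1 member (Olfr27) with no filter and 1 with a replicate block. Receptor windows of 1 Mb called by Tspan8 numbered 1 with DESeq2, 1 with library totals alone, 1 with no filter, 3 with the replicate block, and 1 with 2 Mb windows. By Lgr5 the replicate block gave 4, and for any difference DESeq2 gave 3, the replicate block 6 and 2 Mb windows 1. With the block, chr2:111000001-112000000 was among those called by Tspan8 and chr2:88000001-89000000 among those called by Lgr5. The labels number replicates 1 and 2 in each group, but correlations of the replicate differences between groups were 0.0155 to 0.239 and not all above 0.1, so the numbers were not taken as pairs. Leaving out each library gave 0 to 5 members by Tspan8, 0 to 1 by Lgr5 and 0 to 2 for any difference in H3K27me3. Windows ranged from 0 to 4 by Tspan8, 0 to 3 by Lgr5 and 0 to 3 for any difference in H3K27me3, and from 0 to 1 by Tspan8 in H3K4me3. The pooled log2 difference by Tspan8 became -1.15 for H3K4me3 over the median member, and for H3K27me3 0.12 with library totals and -0.069 over the median member. The Lgr5 difference of H3K27me3 became 0.33 over the median member. The ratio of X-linked to autosomal members became 2.98 over spans of 900 to 1200 bp. The H3K27me3 ratio to other genes became 2.69 over medians and 1.17 at equal span, and that of H3K4me3 0.959 at equal span. With a median of 3.38 H3K4me3 and 7.25 H3K27me3 reads per member and library, most single-gene differences were not detectable at this depth: the median SE of a tested member was 1.04 and 0.60 on the log2 scale.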
